A study of Mus musculus with 6 samples.

Results

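Interferon-stimulated genes are the genes that cells switch on when they sense interferon, and 33 of them were followed in the dorsal striatum of mice heterozygous for Ash1l (Ash1l het) and of wild type (WT) mice. The genes were chosen by name from a table of 34745 genes, and all 33 were found in it. RNA from the dorsal striatum of C57BL/6 mice aged 1 year was sequenced in 3 libraries from Ash1l het and 3 from WT. Ash1l encodes a histone methyltransferase; the labels name neither the allele nor the animal behind each library, and p-values here measure only the spread between libraries, which may be technical. The labels' protocol describes male mice, but the female-specific RNA Xist lay between 1956 and 2957 CPM in all 6 libraries, and 4 Y-linked genes together gave 1 count in WT replicate 1 and 0 counts in the other 5 libraries. Levels in CPM are counts scaled to library size (TMM).

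Type I interferons bind the receptor made of Ifnar1 and Ifnar2, and the kinases Jak1 and Tyk2 then phosphorylate transcription factors of the STAT family, Stat2 among them. These join Irf9 in a complex that binds the interferon-stimulated response element (ISRE) in the promoters of its target genes. Interferon gamma acts mainly through the gamma-activated site (GAS). In the brain, microglia, astrocytes and vessel cells respond readily, and a low resting level of these transcripts is present without infection.

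The promoters of these genes were read first, since ISRE and GAS letters are the sequence they are known for. RefSeq promoter windows on GRCm38.p6, 300 bases long with 250 bases before the gene start and 50 from it on, matched 25 of the 33 genes with 29 windows. The core of the ISRE, GAAA and GAAA with any 2 bases between them, searched on both strands, was present in the windows of 14 of these 25 genes (56% of genes), and in 3.99% of all 27025 genes with a window. The core TTCNNNGAA of the GAS, which reads the same on both strands, was present for 8 of 25 genes (32%) and for 9.55% of all genes. In a further list of other interferon-induced genes, 59 had a window. The ISRE core was present for 30 of them (50.8%) and the GAS core for 8 (13.6%). Among the 25 genes followed here the counts were as follows. Both were present for 5 genes, the ISRE alone for 9, the GAS alone for 3 and neither for 8; a GAS match overlapped an ISRE match in the windows of Bst2 and Ifitm3. A match is a description of these letters and not a measured site.

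Windows are printed for Isg15, Ifit1 and Ifit3 because they are textbook ISRE genes that differed widely between libraries of 1 genotype. Irf1 and Slfn2 are printed because their libraries separated by genotype. ISRE or GAS cores are in capitals. Isg15 (chr4:156200769-156201068, minus strand) holds 3 overlapping ISRE cores, the first starting 78 bases before the gene start. Ifit1 (chr19:34640639-34640938, plus strand) holds ISRE cores starting 104 and 85 bases before the start, and Ifit3 (chr19:34583279-34583578, plus strand) holds them at 156 and 122 bases. The Irf1 window at chr11:53769764-53770063 (plus strand) holds a GAS core starting 90 bases before the start and no ISRE core. Slfn2 (chr11:83064862-83065161, plus strand) holds neither.
Isg15: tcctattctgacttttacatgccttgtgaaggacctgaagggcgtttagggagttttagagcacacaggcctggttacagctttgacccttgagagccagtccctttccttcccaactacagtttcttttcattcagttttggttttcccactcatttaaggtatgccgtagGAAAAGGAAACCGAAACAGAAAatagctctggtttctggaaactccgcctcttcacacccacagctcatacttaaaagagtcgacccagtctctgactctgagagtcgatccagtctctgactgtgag
Ifit1: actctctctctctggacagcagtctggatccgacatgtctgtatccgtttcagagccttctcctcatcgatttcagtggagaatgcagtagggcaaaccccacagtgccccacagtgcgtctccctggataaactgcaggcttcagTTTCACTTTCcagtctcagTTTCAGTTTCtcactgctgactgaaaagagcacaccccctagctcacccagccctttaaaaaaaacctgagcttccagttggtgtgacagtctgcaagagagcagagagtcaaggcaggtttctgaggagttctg
Ifit3: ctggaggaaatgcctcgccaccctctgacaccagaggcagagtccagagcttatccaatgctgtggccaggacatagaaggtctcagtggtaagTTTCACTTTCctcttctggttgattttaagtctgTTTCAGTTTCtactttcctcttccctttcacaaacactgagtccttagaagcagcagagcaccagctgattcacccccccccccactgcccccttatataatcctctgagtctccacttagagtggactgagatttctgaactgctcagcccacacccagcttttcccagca
Irf1: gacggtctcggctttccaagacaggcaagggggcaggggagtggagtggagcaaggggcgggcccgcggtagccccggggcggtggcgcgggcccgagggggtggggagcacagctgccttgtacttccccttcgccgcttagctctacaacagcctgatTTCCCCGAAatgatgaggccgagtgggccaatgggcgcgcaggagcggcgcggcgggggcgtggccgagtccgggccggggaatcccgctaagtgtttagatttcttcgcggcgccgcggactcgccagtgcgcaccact
Slfn2: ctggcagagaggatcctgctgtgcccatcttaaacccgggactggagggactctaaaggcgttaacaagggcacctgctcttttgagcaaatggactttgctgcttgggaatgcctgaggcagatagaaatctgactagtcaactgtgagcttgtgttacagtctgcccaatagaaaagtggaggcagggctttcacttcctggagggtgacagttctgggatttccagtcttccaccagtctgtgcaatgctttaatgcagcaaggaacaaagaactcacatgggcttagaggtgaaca

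Levels per gene length were compared first. FPKM, fragments scaled to gene length and library size as the authors deposited them, averaged over the 6 libraries, was under 1 for 16 of the 32 genes that entered the test, with a median of 0.988. Ifitm3, a membrane protein that blocks virus entry, had the highest FPKM of the genes followed, with a mean of 12.6 in Ash1l het and 10.7 in WT. It was followed by Stat2, the interferon-specific STAT, at a mean of 6.37 FPKM in Ash1l het and 6.08 FPKM in WT, and by Ifit3, which with Ifit1 binds foreign RNA, at a mean of 5.11 FPKM in Ash1l het and 5.12 FPKM in WT. Ifitm3 lay at 7.30 to 18.1 FPKM in Ash1l het and 8.74 to 12.9 FPKM in WT, Stat2 at 5.53 to 7.26 FPKM in Ash1l het and 5.71 to 6.45 FPKM in WT, and Ifit3 at 2.10 to 9.74 FPKM in Ash1l het and 3.63 to 7.13 FPKM in WT. The order of Stat2 and Ifit3 therefore does not hold in every library. Mx1 stood lowest at a mean FPKM of 0.066 in Ash1l het and 0.029 in WT. C57BL/6 mice carry a defective Mx1 gene, and its counts were 4, 11 and 0 in Ash1l het and 2, 0 and 5 in WT. It was the 1 gene of the 33 that did not pass the filter on low counts. A count of 0 allows up to 3 counts, which is 0.165 CPM in Ash1l het replicate 3 and 0.179 CPM in WT replicate 2.

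**Figure D1:**
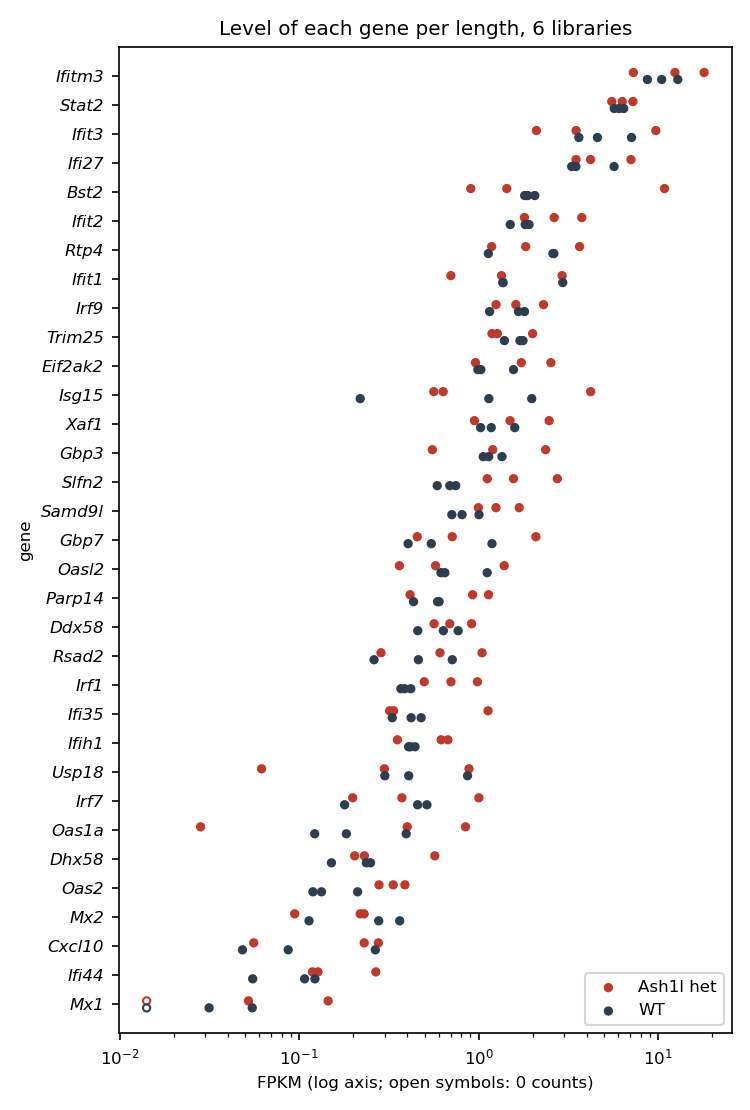
FPKM of each of the 33 genes (log axis) in the 3 Ash1l het libraries (red) and the 3 WT libraries (dark), ordered by the mean over 6 libraries; open symbols at the left edge stand for 0 counts. Ifitm3 is at the top with means of 12.6 FPKM in Ash1l het and 10.7 FPKM in WT, and Mx1 at the bottom.

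No interferon-stimulated gene passed the test of genotype. With the quasi-likelihood test of edgeR over 15267 genes, 0 of the 32 tested had an adjusted p under 0.05, beside 2 genes called in all (0.0131%). The smallest adjusted p among them was 0.741. DESeq2, the exact test of edgeR and limma-voom also called 0 of them, beside 35 (0.205%), 41 (0.269%) and 2 (0.0131%) genes called in all. An unadjusted p under 0.05 was found for 5 of the 32 genes by the quasi-likelihood test and for 5 of 33 by DESeq2. The exact test gave 5 and limma-voom 4. The shares over all genes were 5.78%, 3.75%, 5.06% and 5.91% in that order. All 5 by the quasi-likelihood test were higher in Ash1l het, where the share over all genes was 3.10%. Without Ash1l het replicate 2 that test gave 4 genes, 2 of them higher, beside 6.42% of all genes in that fit. Without Ash1l het replicate 3 it gave 9, beside 10.9% of all genes in that fit. By sign alone 26 were higher and 6 lower in Ash1l het, with a median log2 fold change of 0.36, beside 51.4% higher and a median of 0.006 over all genes tested.

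The direction by sign depended on which libraries were kept. Ash1l het replicate 2 was the highest of the 6 libraries for 28 of the 32 genes, beside 24.1% of all genes tested, and WT replicate 3 was the highest for the other 4, Ifit1, Usp18, Cxcl10 and Mx2. Within WT, replicate 3 was the highest library for 16 of the 32 genes, beside 33.9% of all genes tested. Without Ash1l het replicate 2, 12 of the 32 genes were higher and 20 lower in Ash1l het, the median log2 fold change was -0.12, and 0 were called (0.0448% of all genes in that fit). That library was the highest for most of these genes, so a fall was fixed in advance for them. Leaving out Ash1l het replicate 3 gave 30 higher and 2 lower, with a median of 0.71. Leaving out WT replicate 3 also gave 30 higher and 2 lower, with a median of 0.42. In the heat map by library, the median deviation of the 32 genes from their mean over all libraries, on a log2 scale, was 0.01, 0.72 and -0.49 in Ash1l het replicates 1, 2 and 3, and -0.10, -0.34 and 0.06 in WT replicates 1, 2 and 3. The same median over all genes tested lay between 0.006 and 0.014 in every library.

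**Figure D2:**
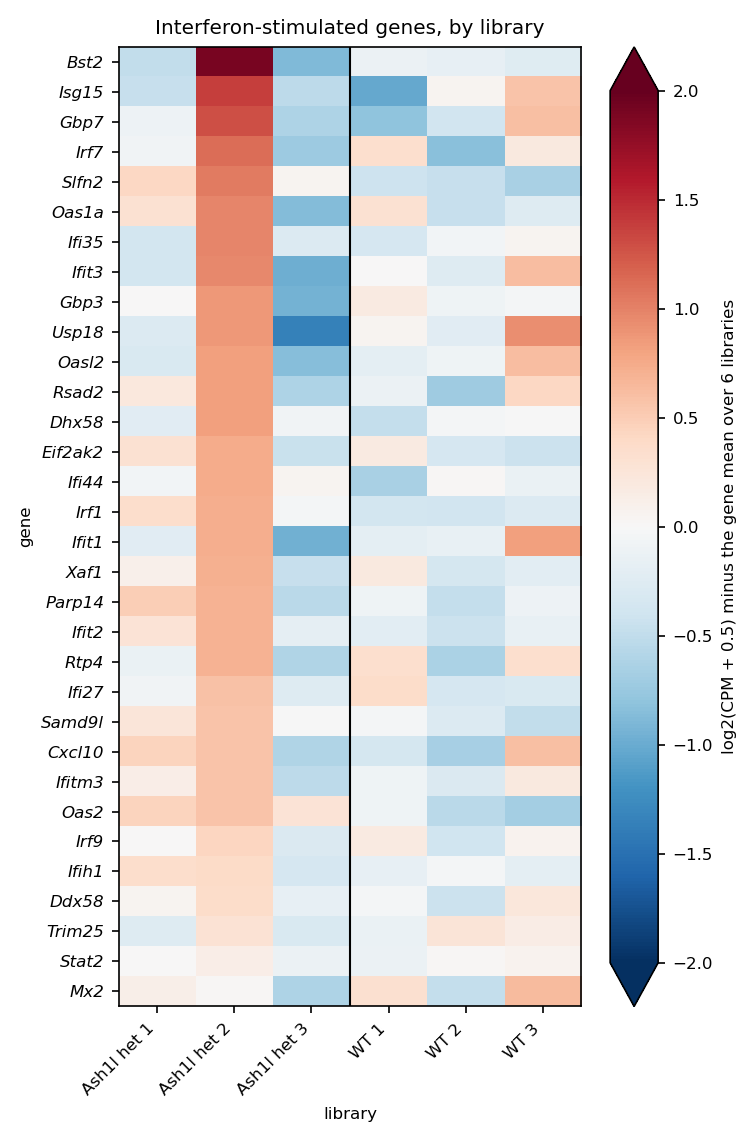
Heat map of the 32 tested interferon-stimulated genes (rows, ordered by Ash1l het replicate 2) in the 3 Ash1l het and the 3 WT libraries (columns), coloured by log2(CPM + 0.5) minus the mean of the gene over 6 libraries. Ash1l het replicate 2 is above the mean for nearly every gene (median 0.72), Ash1l het replicate 3 is mostly below it (median -0.49), and Isg15, Usp18, Ifit1 and several others are also above it in WT replicate 3.

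Ash1l het libraries were not alike. Ash1l het replicate 3 was the lowest of the 3 Ash1l het libraries for 29 of the 32 genes, a count with no share over all genes beside it. It was the lowest of all 6 libraries for 14 of the 32 genes, beside 14.2% of all genes tested. It lay below every WT library for 14 of the 32, where the share over all genes was 25.6%. Ash1l het replicate 2 lay above every WT library for 28 genes, where the share over all genes was 33.2%, and Ash1l het replicate 1 for 9 genes, where it was 32.9%. Within Ash1l het the highest library exceeded the lowest by a median factor of 2.44, and within WT by a median factor of 1.64. The median factor over all genes tested was 1.35 within Ash1l het and 1.20 within WT; low counts widen such factors, and the median gene of the list had 476.5 counts over the 6 libraries.

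Transcription factors of the pathway split by their spread. Irf1 (ENSMUSG00000018899; chromosome 11, 53770014 to 53778374, plus strand), a factor induced by interferon gamma and by cytokines, stood at 4.01, 5.34 and 2.97 CPM in Ash1l het and at 2.24, 2.21 and 2.43 CPM in WT. The genotypes did not overlap. The log2 fold change came to 0.83 (SE 0.27; edgeR adjusted p = 0.825), and 0.60 (SE 0.26) without Ash1l het replicate 2. Irf7, the factor that amplifies interferon production, had 2.38, 6.06 and 1.32 CPM in Ash1l het and 3.31, 1.20 and 2.95 CPM in WT, so the groups overlapped. Irf7 lies over Phrf1 on the opposite strand, and no source used here says if reads were counted by strand. Stat2 varied little, at 28.1, 30.6 and 25.6 CPM in Ash1l het and 25.6, 28.3 and 29.1 CPM in WT (fold change on the log2 scale 0.02, SE 0.12). Irf9, the DNA-binding partner of the STATs, stood at 13.7, 18.6 and 11.1 CPM in Ash1l het and 15.5, 10.3 and 14.4 CPM in WT. Irf9 shares its strand and part of its span with Rnf31, so its counts are uncertain.

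Sensors of viral RNA had overlapping groups. Ifih1 encodes MDA5, which detects long RNA duplexes, and stood at 6.93, 7.17 and 4.12 CPM in Ash1l het and 4.72, 5.20 and 4.63 CPM in WT (fold change on the log2 scale 0.32, SE 0.24, edgeR adjusted p = 0.897). Its Ash1l het replicate 3 lay below all WT libraries while the other two lay above them. Dhx58, which encodes the regulator LGP2, stood at 0.884, 2.35 and 1.04 CPM in Ash1l het and 0.662, 1.08 and 1.10 CPM in WT (0.56, SE 0.45, edgeR adjusted p = 0.897). Without Ash1l het replicate 2 the log2 fold changes were 0.18 (SE 0.26) for Ifih1 and 0.0094 (SE 0.43) for Dhx58. Ddx58, which encodes RIG-I, ran from 6.38 to 9.38 CPM in Ash1l het and from 5.20 to 8.45 CPM in WT. Trim25, a ubiquitin ligase of the RIG-I pathway, was among the 6 genes lower by sign, at 7.34, 10.9 and 7.15 CPM in Ash1l het and 8.11, 10.7 and 9.96 CPM in WT.

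Oligoadenylate synthetases, which make the activator of RNase L, differed among themselves. Oas2 (ENSMUSG00000032690; chromosome 5, 120730333 to 120749853, minus strand) stood at 2.72, 3.00 and 2.36 CPM in Ash1l het and at 1.74, 1.14 and 0.984 CPM in WT, with no overlap. The log2 fold change came to 1.08 (SE 0.31; edgeR adjusted p = 0.801), and 1.00 (SE 0.35) without Ash1l het replicate 2. Oas1a had few counts, 11, 23 and 1 in Ash1l het and 9, 4 and 6 in WT. Oasl2, a relative with a ubiquitin-like tail, had 6.12, 14.0 and 4.01 CPM in Ash1l het and 6.62, 7.23 and 12.04 CPM in WT. Eif2ak2, which encodes the RNA-activated kinase PKR, stood at 10.1, 13.9 and 5.83 CPM in Ash1l het and 9.19, 6.28 and 5.85 CPM in WT (fold change on the log2 scale 0.49, SE 0.32, edgeR adjusted p = 0.889), and its log2 fold change without Ash1l het replicate 2 was 0.16 (SE 0.29).

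The Ifit genes lie next to each other on chromosome 19 and encode proteins that bind RNA and restrain translation. Ifit2 stood at 11.4, 15.4 and 8.14 CPM in Ash1l het and at 7.95, 6.81 and 8.40 CPM in WT. Ash1l het replicates 1 and 2 exceeded all WT libraries and replicate 3 did not, and the log2 fold change came to 0.59 (SE 0.23; edgeR adjusted p = 0.857), and to 0.34 (SE 0.20) without Ash1l het replicate 2. Ifit1 (ENSMUSG00000034459; chromosome 19, 34640871 to 34650009, plus strand) had 3.54, 7.30 and 1.92 CPM in Ash1l het and 3.64, 3.77 and 7.87 CPM in WT. Ifit3 (ENSMUSG00000074896; chromosome 19, 34583531 to 34588731, plus strand) had 6.05, 15.96 and 3.79 CPM in Ash1l het and 8.03, 6.58 and 12.5 CPM in WT. For both, Ash1l het replicate 2 and WT replicate 3 were the high libraries and Ash1l het replicate 3 the lowest of all 6. Their log2 fold changes were -0.28 (SE 0.52) for Ifit1 and -0.08 (SE 0.56) for Ifit3, and -0.93 (SE 0.44) and -0.89 (SE 0.33) without Ash1l het replicate 2. Reads of Ifit3 can be split with its close copy Ifit3b, which stood at 3.94, 11.9 and 3.19 CPM in Ash1l het and 6.79, 3.71 and 6.43 CPM in WT.

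Isg15, a ubiquitin-like protein, and Usp18, the protease that removes it and dampens receptor signalling, spanned wide ranges within each genotype. Isg15 (ENSMUSG00000035692; chromosome 4, 156199424 to 156200818, minus strand) had 7, 46 and 8 counts in Ash1l het and 2, 15 and 26 counts in WT, or 0.476, 3.00 and 0.440 CPM in Ash1l het and 0.166, 0.897 and 1.51 CPM in WT. The highest WT library exceeded the lowest 9.09-fold, the widest WT range of the 32 genes. Usp18 had 1.02, 2.87 and 0.220 CPM in Ash1l het and 1.41, 1.08 and 3.01 CPM in WT. Their log2 fold changes of 0.53 (SE 0.91) and -0.46 (SE 0.78) were smaller than their SE.

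Among membrane restriction factors, Bst2 stood out in 1 library. Bst2 (ENSMUSG00000046718; chromosome 8, 71534264 to 71537437, minus strand) encodes tetherin, which holds budding virus at the cell surface. It stood at 1.09, 7.82 and 0.715 CPM in Ash1l het and at 1.57, 1.49 and 1.39 CPM in WT. Ash1l het replicate 2 was thus 10.9 times Ash1l het replicate 3, while the other Ash1l het libraries lay below all WT libraries, which differed by a factor of 1.13. With all libraries the log2 fold change came to 1.10 (SE 0.92; adjusted p = 0.904 in edgeR), and it was -0.73 (SE 0.38) without Ash1l het replicate 2. Ifitm3 had 8.36, 11.5 and 5.11 CPM in Ash1l het and 7.12, 6.16 and 8.80 CPM in WT. Rsad2, which encodes the antiviral enzyme viperin, had 2.92, 4.76 and 1.43 CPM in Ash1l het and 2.24, 1.32 and 3.47 CPM in WT.

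GTPases of the antiviral and guanylate-binding families overlapped between genotypes as well. Mx2 was the gene with the smallest p among those lower by sign, at 1.16, 1.04 and 0.495 CPM in Ash1l het and 1.41, 0.598 and 1.85 CPM in WT (fold change on the log2 scale -0.53, SE 0.50, edgeR adjusted p = 0.910). Gbp3 stood at 7.21, 13.5 and 3.46 CPM in Ash1l het and at 8.20, 6.70 and 6.95 CPM in WT. Gbp7 stood at 4.62, 12.8 and 3.08 CPM in Ash1l het and at 2.65, 3.71 and 7.82 CPM in WT. Both were highest in Ash1l het replicate 2, and Gbp7 also stood high in WT replicate 3.

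Slfn2 and Samd9l were separated by genotype in CPM. Slfn2 (ENSMUSG00000072620; chromosome 11, 83065112 to 83070678, plus strand), a Schlafen family gene that keeps mouse T cells quiescent, stood at 2.58, 4.30 and 1.92 CPM in Ash1l het and at 1.24, 1.20 and 0.984 CPM in WT. All Ash1l het libraries lay above all WT libraries. The log2 fold change came to 1.36 (SE 0.37; edgeR adjusted p = 0.741), and 0.98 (SE 0.34) without Ash1l het replicate 2. Samd9l, an antiviral gene that restrains translation and growth, stood at 7.14, 9.12 and 5.94 CPM in Ash1l het and at 5.80, 4.84 and 4.11 CPM in WT, again with no overlap (log2 fold change 0.59, SE 0.22; edgeR adjusted p = 0.857), and its log2 fold change was 0.42 (SE 0.22) without Ash1l het replicate 2. With Oas2 and Irf1 these were the 4 of 32 genes whose Ash1l het libraries all lay above all WT libraries, where the share over all genes tested was 6.18%. In FPKM the lowest Ash1l het library of Samd9l, at 0.998, was just under the highest WT library, at 1.01. In 0 of 32 genes all Ash1l het libraries lay below all WT libraries, where the share over all genes was 5.53%.

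**Figure D3:**
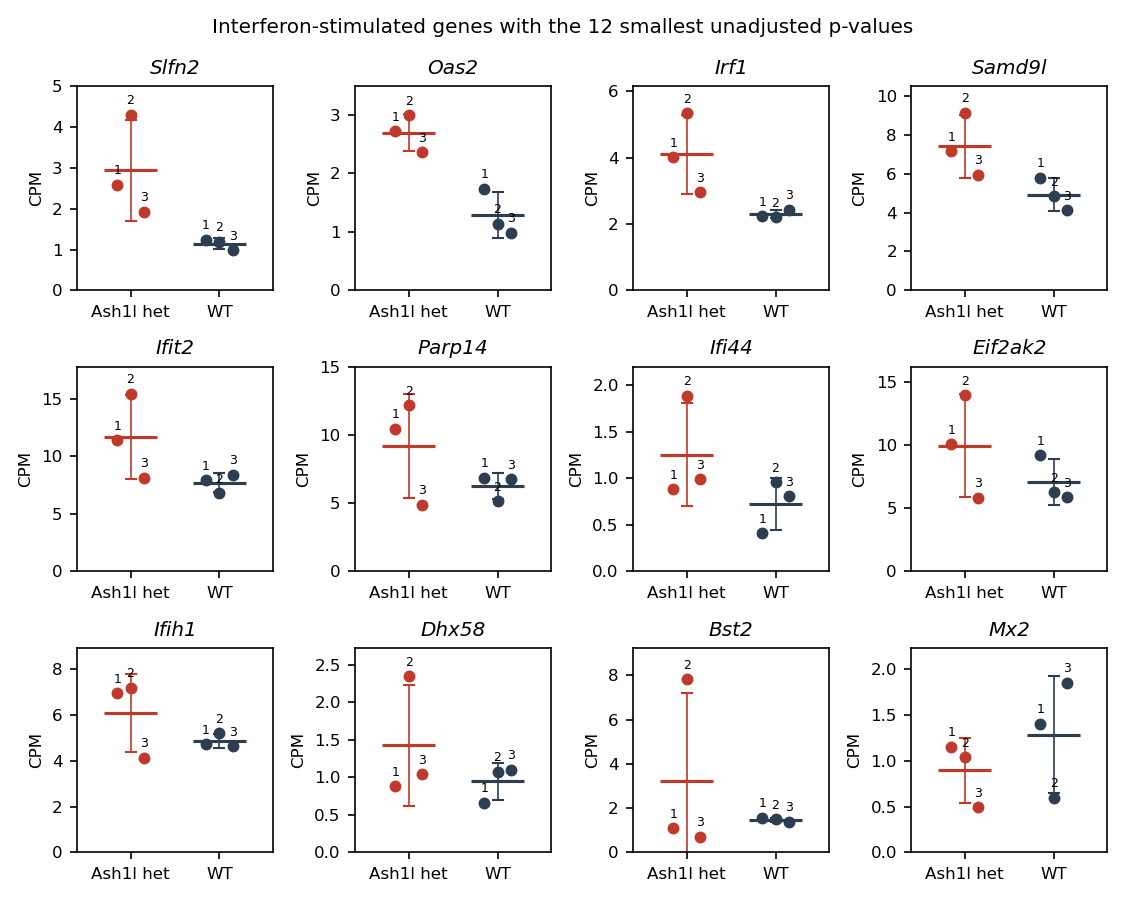
CPM in each library (points, numbered by replicate) of the 12 interferon-stimulated genes with the smallest unadjusted p, Ash1l het left and WT right in each panel; horizontal lines are means and bars are SD (n = 3 each; the lower Bst2 bar in Ash1l het runs below 0 and is cut at the axis). Slfn2, Oas2, Irf1 and Samd9l have no overlap between genotypes, and Bst2 rests on Ash1l het replicate 2 at 7.82 CPM.

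The remaining genes showed the same overlap. Parp14, an ADP-ribosyltransferase, stood at 10.5, 12.2 and 4.89 CPM in Ash1l het and at 6.87, 5.14 and 6.77 CPM in WT (fold change on the log2 scale 0.55, SE 0.32, edgeR adjusted p = 0.887). Ifi44 had 0.884, 1.89 and 0.990 CPM in Ash1l het and 0.414, 0.956 and 0.811 CPM in WT (0.74, SE 0.46, edgeR adjusted p = 0.889). Without Ash1l het replicate 2 the log2 fold changes were 0.29 (SE 0.33) for Parp14 and 0.33 (SE 0.48) for Ifi44. Cxcl10, a chemokine that draws in T cells, had 16, 19 and 5 counts in Ash1l het and 5, 4 and 22 counts in WT. Xaf1, a pro-apoptotic partner of XIAP, ran from 5.66 to 13.4 CPM in Ash1l het and from 6.16 to 9.19 CPM in WT. Ifi27 ran from 9.24 to 17.0 CPM in Ash1l het and from 8.79 to 14.6 CPM in WT. For Ifi35 the ranges were 0.952 to 3.19 CPM in Ash1l het and 0.993 to 1.45 CPM in WT, and for Rtp4, a receptor transport protein, 1.92 to 5.41 CPM in Ash1l het and 1.85 to 4.14 CPM in WT. In each of these last 4 genes Ash1l het replicate 2 was the highest library. On the opposite strand, Cxcl10 (71 counts in all) overlaps Art3 (267 counts) and Rtp4 (312 counts) overlaps Masp1 (396 counts). The limit on strand given for Irf7 holds for Cxcl10 and Rtp4 too.

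**Figure D4:**
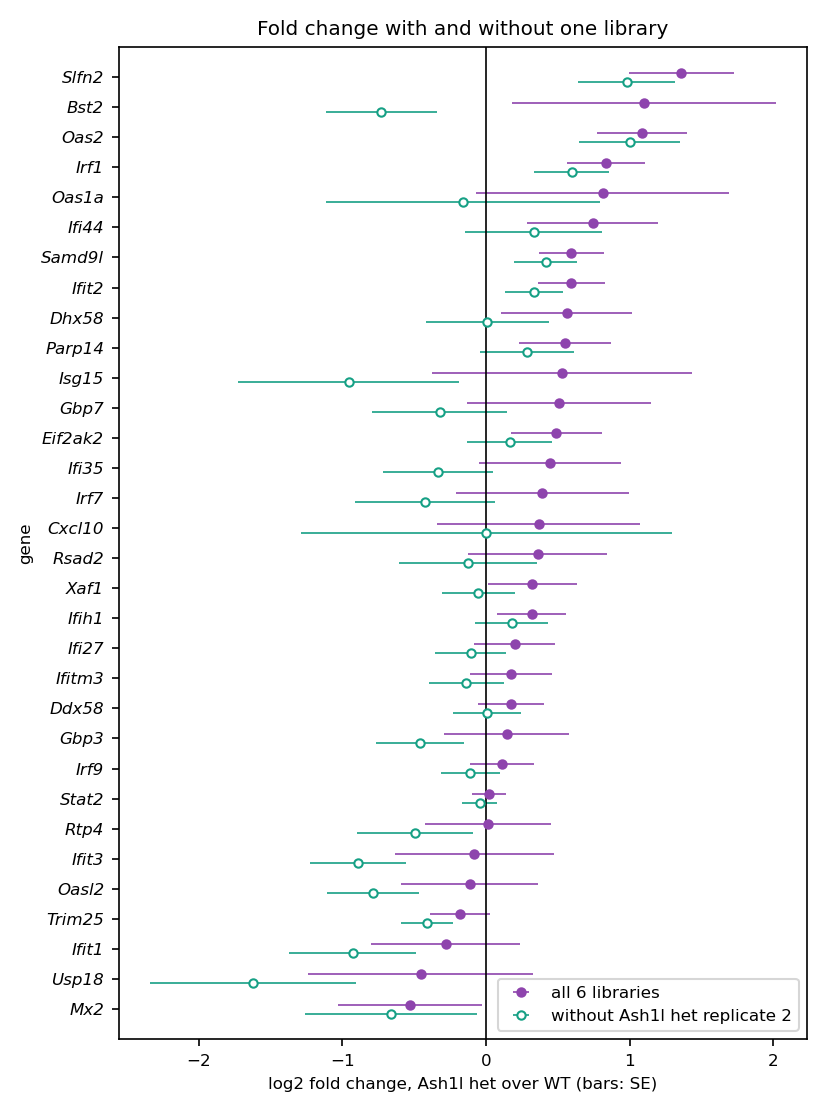
Log2 fold change of Ash1l het over WT with its SE for the 32 tested genes, with all 6 libraries (filled) and without Ash1l het replicate 2 (open). With all libraries 26 genes lie above 0 and 6 below, and without Ash1l het replicate 2 it is 12 above and 20 below. That library was the highest for most of the genes, so a fall was fixed in advance for them. Slfn2, Oas2, Irf1 and Samd9l are among those 12. Their genotypes do not overlap in CPM, so leaving out 1 library could hardly turn their sign. Bst2 is at 1.10 with all libraries and at -0.73 without Ash1l het replicate 2.

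Upstream of these genes, interferons themselves were not detected. All 21 interferon genes in the list, among them Ifnb1 and Ifng, had 0 counts in all 6 libraries, which allows up to 0.165 to 0.204 CPM per gene in Ash1l het libraries and 0.174 to 0.248 CPM in WT libraries, for counting error only. Of the 5 tested receptor genes 0 were called; Ifnar1 stood at 51.9, 39.5 and 37.7 CPM in Ash1l het and 38.8, 48.8 and 44.2 CPM in WT. Their median log2 fold change was -0.02, with 2 higher and 3 lower by sign. Of 14 tested kinases, STATs and feedback inhibitors 0 were called, 10 were higher and 4 lower by sign, and the median log2 fold change was 0.12. By the quasi-likelihood test 5 had an unadjusted p under 0.05, 3 of them higher in Ash1l het, beside 5.78% of all genes. Socs3, a feedback inhibitor induced chiefly through Stat3, stood at 2.86, 3.45 and 1.32 CPM in Ash1l het and 0.497, 1.08 and 0.405 CPM in WT (fold change on the log2 scale 1.91, SE 0.49, edgeR adjusted p = 0.741). Pias4, an inhibitor of STAT signalling, stood at 18.7, 19.4 and 22.5 CPM in Ash1l het and 27.8, 24.6 and 26.6 CPM in WT (-0.38, SE 0.13, edgeR adjusted p = 0.825).

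Among nucleic acid sensors, adaptors and interferon-inducing factors 0 of 17 tested were called, with 10 higher and 7 lower by sign and a median log2 fold change of 0.06. Tlr7, the endosomal receptor for single RNA strands, stood at 8.30, 11.99 and 6.82 CPM in Ash1l het and 4.31, 5.20 and 1.56 CPM in WT (1.30, SE 0.41; edgeR adjusted p = 0.841), and was the 1 gene of that list with an unadjusted p under 0.05. The list of other interferon-induced genes, 59 tested, repeated the pattern within Ash1l het but not within WT. Among WT libraries, replicate 1 was the highest for 30 of its genes and replicate 3 for 20 (33.9%, as over all genes tested). It had 0 calls, 49 higher and 10 lower by sign, a median of 0.34, and Ash1l het replicate 2 as the highest library for 45 of 59 genes. Without Ash1l het replicate 2 the median was -0.02 and 31 of the 63 genes then tested were higher by sign. Without Ash1l het replicate 3 the median was 0.57 and 57 of the 64 genes then tested were higher by sign. Isg20, an RNA exonuclease, had the smallest p in it, at 1.90, 1.82 and 1.15 CPM in Ash1l het and 1.16, 0.359 and 0.637 CPM in WT (1.21, SE 0.46, edgeR adjusted p = 0.857).

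Markers of other cell states were read in the same libraries. Reactive astrocyte markers, 8 of 8 detected, summed to 749, 1257 and 246 CPM in Ash1l het and 323, 159 and 192 CPM in WT; Gfap alone had 412, 733 and 104 CPM in Ash1l het and 154, 62.1 and 83.7 CPM in WT. In Ash1l het replicate 1 the median deviation was 0.83 for these markers, 0.78 for reactive microglia markers and 0.01 for the interferon-stimulated genes. Reactive microglia markers, 9 of 9 detected, summed to 213, 278 and 166 CPM in Ash1l het and 167, 134 and 165 CPM in WT. General microglia markers summed to 433, 527 and 417 CPM in Ash1l het and 457, 424 and 443 CPM in WT, highest in Ash1l het replicate 2. Oligodendrocyte markers were highest in Ash1l het replicate 2 for 5 of 6 genes and summed to 7001, 7985 and 5458 CPM in Ash1l het and 6681, 5301 and 5859 CPM in WT. Their median deviations were 0.06, 0.39 and -0.25 in Ash1l het replicates 1, 2 and 3, and 0.10, -0.11 and -0.06 in WT. Within Ash1l het these medians ran in the same order as those of the interferon-stimulated genes. So did those of reactive astrocyte, reactive microglia, general microglia and erythroid genes. Those of general astrocyte, endothelial and mural, leukocyte and spiny projection neuron genes did not. Only 3 libraries were ordered, so such a match says little. Within WT the interferon-stimulated genes had their highest median in replicate 3 (0.06). There the oligodendrocyte, reactive astrocyte, reactive microglia, general microglia and erythroid lists had theirs in replicate 1. Endothelial and mural markers were higher by sign for 11 of 12 genes, highest in Ash1l het replicate 3 for 9, and summed to 443, 396 and 500 CPM in Ash1l het and 326, 397 and 353 CPM in WT. The share of counts from mitochondrially encoded genes was 17.3%, 15.9% and 18.8% in Ash1l het and 16.2%, 18.8% and 16.7% in WT, lowest in Ash1l het replicate 2 and highest in Ash1l het replicate 3. Erythroid genes summed to 123, 109.5 and 56.1 CPM in Ash1l het and 25.1, 35.4 and 23.0 CPM in WT. Of 17 leukocyte markers, 2 had 0 counts in all libraries, Ly6g among them, and 5 passed the filter on low counts. The list summed to 130 to 135 CPM in Ash1l het and 135 to 140 CPM in WT, nearly all of it Cd4. The part of these cells, and of the mitochondrial share, in the values above was not tested. In bulk tissue more cells of a type and more RNA per cell cannot be told apart.

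**Figure D5:**
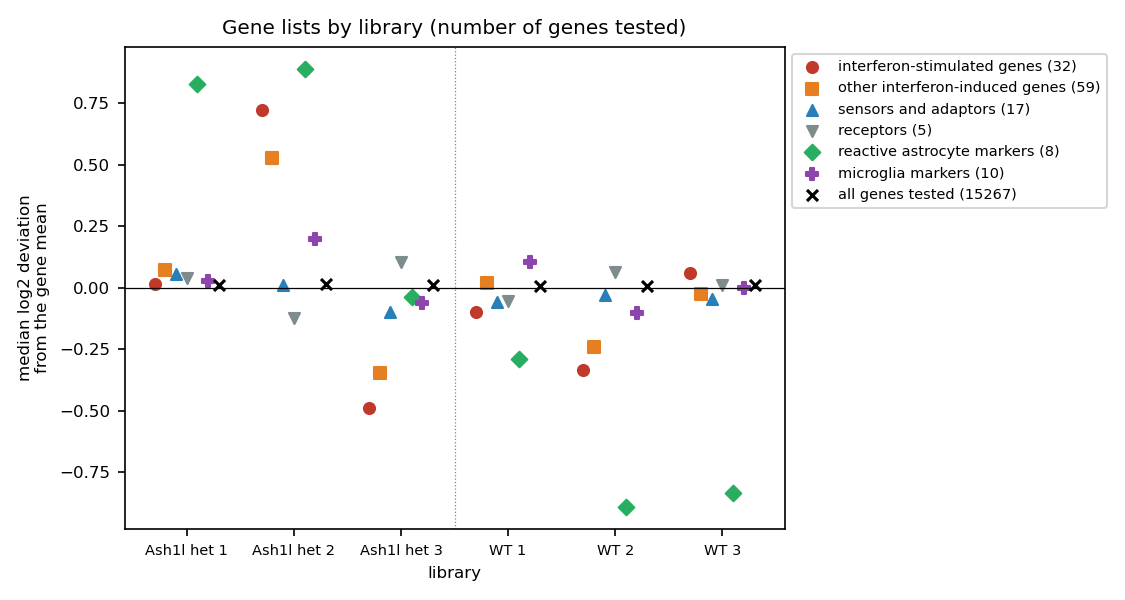
Median deviation of each gene list from the gene means over 6 libraries (log2 scale) in the 3 Ash1l het and the 3 WT libraries, with the number of genes tested in brackets. The interferon-stimulated genes and the other interferon-induced genes are highest in Ash1l het replicate 2 (0.72 and 0.52). Both lists are lowest in Ash1l het replicate 3 (-0.49 and -0.35). Reactive astrocyte markers are high in Ash1l het replicates 1 and 2 (0.83 and 0.89). Reactive microglia markers, with medians of 0.78, 1.33 and -0.30 in Ash1l het replicates 1, 2 and 3, are not drawn.

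The tissue and the targeted gene were checked in the same libraries. Spiny projection neuron markers, 10 of 10 detected, summed to between 7356 and 9074 CPM in Ash1l het and between 7809 and 8917 CPM in WT. Ash1l stood at 281, 198 and 253 CPM in Ash1l het and at 308, 295 and 293 CPM in WT (fold change on the log2 scale -0.29, SE 0.13, edgeR adjusted p = 0.858). Library totals were 14421259 to 18798694 counts in Ash1l het and 12080663 to 17381781 counts in WT.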

How the data were processed

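Per the labels' protocols, libraries were made with a kit that keeps strand. Per the submitters' processing notes, the authors used HISAT2, StringTie and edgeR with the GRCm38 build. Their table gives deposited gene counts, which were tested here, and deposited FPKM, used for levels between genes; no source used here gives tool versions or the strand setting of the counting. The 33 genes were matched by symbol, and their coordinates are those of the table.

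Counts were tested by quasi-likelihood in edgeR 4.0.16 under R 4.3.3 on 3 Ash1l het and 3 WT libraries, with TMM scaling, filterByExpr at a minimum count of 10, robust dispersion and Benjamini-Hochberg adjustment over 15267 genes. A gene was called at an adjusted p under 0.05. CPM uses TMM-scaled library sizes, and deviations use log2(CPM + 0.5). The test was checked on simulated counts with known changes, drawn with the dispersion trend over all genes. The genes of the list varied more, with a median biological coefficient of variation of 0.314 beside 0.159 over all genes tested. That check therefore does not measure what could be called among them. Limits from a count of 0 cover counting error only. Alternatives were DESeq2 1.42.0, the exact test of edgeR, limma 3.58.1 (voom, and log2 FPKM with a pseudocount of 0.1 or 1), other scalings and filters, a replicate block and each library left out.

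The genes and gene lists were chosen with earlier results of these data known. Every gene is named with values; the 12 with the smallest unadjusted p have every library, fold change, SE and adjusted p, and each other pathway list up to 3 genes with the smallest p. Ifit3b was named outside that rule, with its values seen. Items withheld here are not reported.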

Additional observations from a re-analysis of the deposited data

How the results depend on the processing

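No interferon-stimulated gene was called under any alternative, but 20 of the 32 changed sign at least once. Of 192 log2 fold changes with 1 library left out 29 changed sign, and of 363 from other tools, scalings, filters and the block 4 did. The number of all genes called was 2 with the quasi-likelihood test of edgeR, 35 with DESeq2, 41 with the exact test of edgeR, and 1 to 13 with 1 library left out; the cause was not tested. The median log2 fold change of the 32 genes lay between -0.12 and 0.71 with 1 library left out, below 0 without Ash1l het replicate 2 alone. With limma-voom Gbp3 was at -0.088 and Rtp4 at -0.030.

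With 1 library left out, log2 fold changes that changed sign ran from -0.73 to 1.59 for Bst2, -0.96 to 1.19 for Isg15, -1.62 to 0.13 for Usp18, -0.93 to 0.19 for Ifit1, -0.89 to 0.28 for Ifit3, -0.79 to 0.21 for Oasl2, -0.32 to 1.09 for Gbp7, -0.46 to 0.51 for Gbp3, -0.50 to 0.30 for Rtp4 and -0.43 to 0.78 for Irf7. They ran from -0.34 to 0.72 for Ifi35, -0.16 to 1.39 for Oas1a, -0.14 to 0.43 for Ifitm3, -0.13 to 0.78 for Rsad2, -0.11 to 0.47 for Ifi27, -0.11 to 0.27 for Irf9, -0.054 to 0.58 for Xaf1, -0.045 to 0.082 for Stat2, -0.043 to 1.40 for Cxcl10 and -0.00057 to 0.35 for Ddx58.

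With the replicate number as a block, 0 of the 32 genes and 3 genes in all were called, the median was 0.30, and Gbp3 was at -0.028 and Rtp4 at -0.041. Deviations of same-numbered libraries correlated at 0.07, -0.08 and 0.01 for replicates 1, 2 and 3, so no shared deviation was seen. Such correlations over all genes cannot show whether same-numbered libraries were paired by design, and no source used here says so. With 3 libraries a genotype and a median of 476.5 counts a gene over all libraries, 0 genes of the list passed the threshold.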
